A study of Mus musculus with 36 samples.

Results

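In the testes of juvenile mice that lack Brdt, 58 genes gave opposite readings on the same bead array: one of their probes was higher and another lower than in wild-type littermates and age-mates at 20 days post partum (dpp). These genes were found on the authors' processed values, in log2, among probes detected (detection p under 0.01) on all 6 arrays of Brdt+/+ or all 6 of Brdt-/- testes at 20 dpp. A gene was a member when at least 1 kept probe differed by 0.3 or more and another by -0.3 or less, after arrays were averaged per animal and then over animals. The 58 members stood among 3507 genes with 2 or more kept probes, or 1.65%, and the 17365 kept probes were part of the 45281 on the array. The members were thus chosen by the measured difference between Brdt-/- and Brdt+/+ at 20 dpp, which is described below without a test.

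Brdt encodes the testis-specific member of the BET proteins, which bind acetylated histones through paired bromodomains and are needed for the meiotic and post-meiotic gene programme of male germ cells. Male germ cells are known for transcripts that differ from those of other cells: they use other promoters, other exons and other poly(A) sites, and messages of round spermatids often end at poly(A) sites closer to the coding sequence. A short hybridisation probe reads only the transcripts that contain its target, so probes at different places of a gene can report different transcripts. The positions of the probes on the transcripts were not used here, so whether a member differed in its start, its exons or its 3′ end was not tested.

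RNA of whole testis from C57BL/6 mice was hybridised to 36 single-colour arrays, which came from 24 animals in 6 groups. The Brdt knockout line gave 4 Brdt-/- and 3 Brdt+/+ animals at 20 dpp, and 4 Brdt-/- and 6 Brdt+/- animals at 17 dpp, so that the younger controls carried 1 knockout allele. The line that lacks the first bromodomain gave 3 BD1-/- animals (the BD1 deletion) and 4 controls at 20 dpp, of which animals 219 and 191 were BD1+/- and animals 195 and 196 were BD1+/+. The 3 Brdt+/+ animals and Brdt-/- animals 148 and 152 were littermates (litter 1), Brdt-/- animals 139 and 140 came from litter 2, and in the other genotype comparisons litters held both genotypes, litters 7 to 9 at 17 dpp and 4 to 6 in the BD1 line.

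Each array detected 17379 to 20016 probes, and the number of animals limits the precision of every value. Brdt itself, read by its brightest probe, lay at a log2 signal of 7.23 to 8.28 in Brdt-/- against 11.44 to 11.61 in Brdt+/+ animals at 20 dpp and at 5.28 to 6.71 against 8.47 to 9.52 at 17 dpp. BD1 deletion animals had 10.20 to 10.50 against 10.75 to 11.73 in the controls. Markers of round spermatids, the first cells after meiosis, set the control groups at 20 dpp apart from the other 4 groups: their summed signal was 13940 to 24730 in Brdt+/+ and 992 to 2198 in Brdt-/- animals at 20 dpp, 6189 to 21730 in BD1 controls and 3108 to 4687 in the BD1 deletion, and 748 to 1409 in Brdt+/- and 623 to 974 in Brdt-/- animals at 17 dpp. Of the 20 spermatid markers on the array, 13 were detected on no array of the Brdt-/- animals at 20 dpp, 13 in the BD1 deletion, 16 and 17 in the 2 groups at 17 dpp, and 1 in each control group at 20 dpp. Summed markers of the other cell types separated Brdt-/- from Brdt+/+ animals at 20 dpp as well. The sums cover 10 of 12 listed spermatocyte, 7 of 10 Sertoli cell and 7 of 10 spermatogonial markers. They also cover 5 of 6 macrophage, 3 of 7 Leydig cell and 3 of 5 peritubular markers. Bright genes weigh most in a sum, and single markers are not given for this contrast. Summed spermatocyte markers were lower in Brdt-/- (65430 to 106200 against 136200 to 146400). Higher in Brdt-/- were the sums for Sertoli cells (64390 to 71460 against 44610 to 53500), spermatogonia (3877 to 5343 against 2638 to 3146), macrophages (2093 to 2602 against 1009 to 1433), Leydig cells (11550 to 15840 against 6396 to 10550) and peritubular cells (16090 to 18930 against 12140 to 14700). In whole testis, fewer cells of a type and less RNA per cell cannot be told apart, and the part of these markers in the results below was not tested.

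In Brdt-/- testes at 20 dpp the lower readings as a rule lay further from Brdt+/+ than the higher ones. For each gene, the up probe is the one with the highest and the down probe the one with the lowest difference from Brdt+/+. On the authors' values the up probes differed by 0.30 to 1.10 (median 0.43) and the down probes by -2.71 to -0.30 (median -0.60). Signals below are background-corrected, quantile-normalised log2 values, on which the median difference was 0.57 for the up probes and -0.78 for the down probes, and in 46 of the 58 genes the negative difference was the larger in size. The gap between up and down probe (log2 signal of the first minus the second within an animal) differed by a median of 1.43 and a range of 0.72 to 4.44, against a median of 0.17 over all 3507 genes. It was at least 1 in 48 members and at least 2 in 13. The median of all kept probes was itself 0.23 higher in Brdt-/- than in Brdt+/+ animals. All 58 up probes lay above that shift, but on the authors' scale, where that median was 0.14, only 28 of the 58 remained members when differences were taken from it. These values share the contrast that chose the genes and carry no weight of their own.

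**Figure D1:**
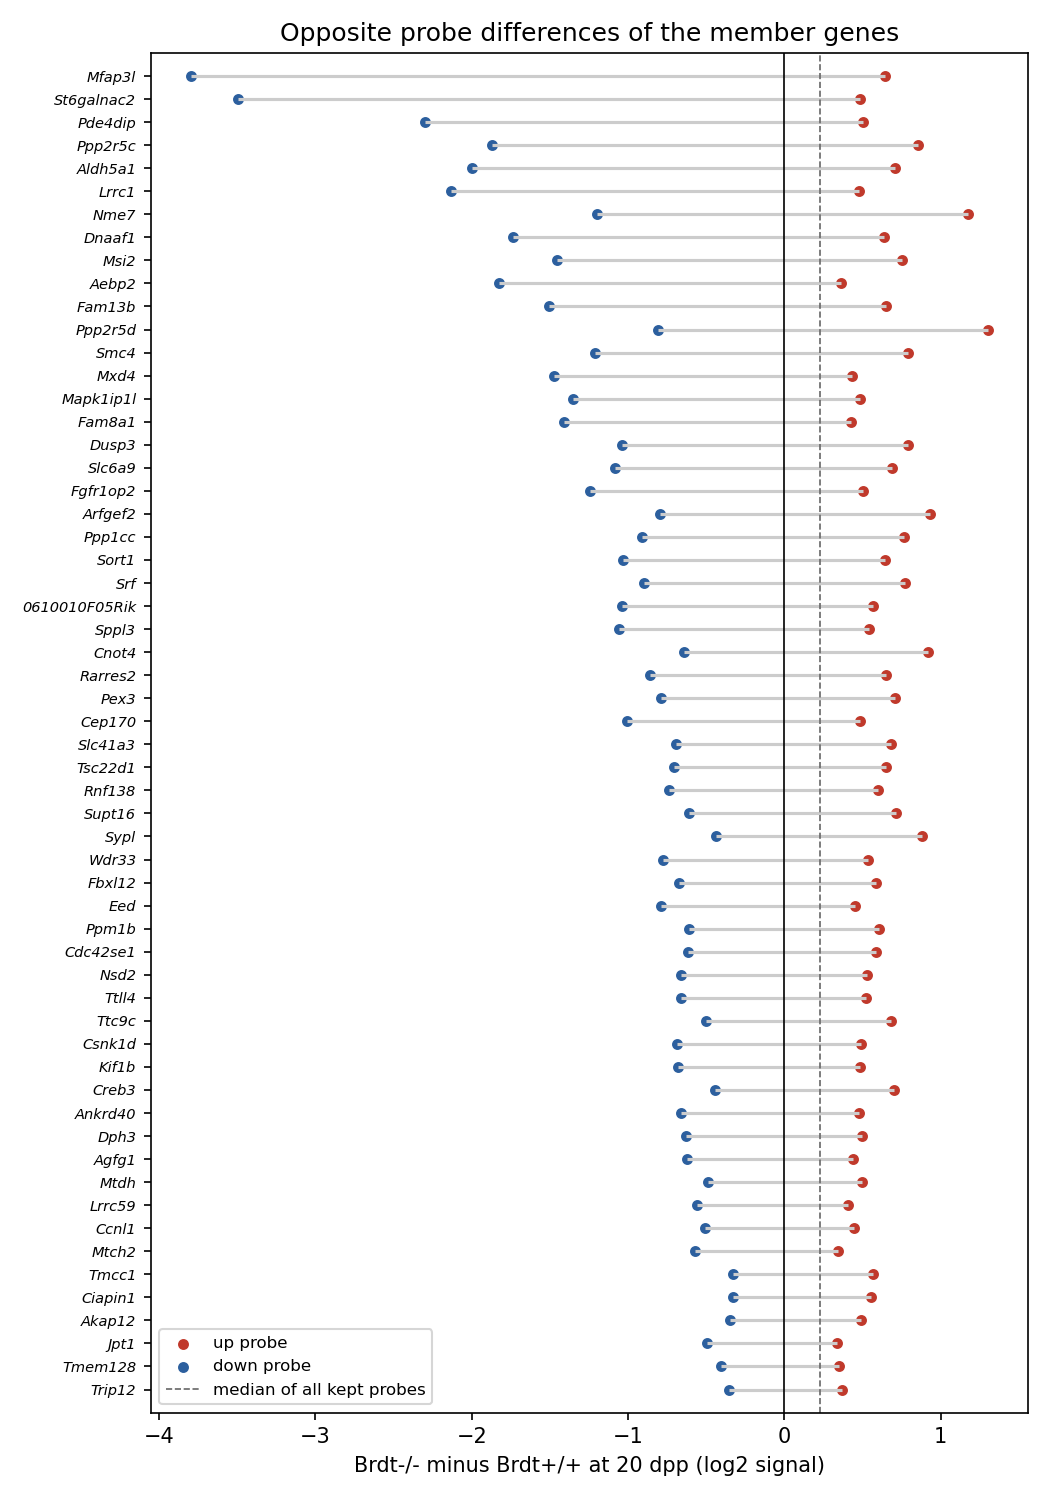
Difference in log2 signal between Brdt-/- (n = 4) and Brdt+/+ animals (n = 3) at 20 dpp (x axis) for the up probe (red) and the down probe (blue) of each of the 58 members (y axis), sorted by the gap. The dashed line is the median of all kept probes (0.23), and the blue points of Mfap3l and St6galnac2 lie furthest left, past -3.

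At the edge of the rule, Slc41a3, a magnesium transporter of the SLC41 family, entered with 0.30 and -0.60 on the authors' scale, Lrrc1 with 0.30 and -1.97, and Tmcc1, a protein of the endoplasmic reticulum membrane, with 0.42 and -0.30. Just outside lay Cyhr1, with 0.30 (0.2995 before rounding) and -0.82, Ubqln1, with 0.30 (0.2981) and -0.64, and Tex261, with 0.29 and -0.96.

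The members were genes with more probes than usual, so that the rule had more chances to find them. Exactly 2 kept probes were present for 36.2% of the members and 68.3% of all genes with 2 or more, and the mean was 3.02 against 2.42 probes. Both probes of a pair were annotated to the same transcript accession in 41 of the 55 members with an accession for each (74.5%, against 80.9% of all genes), so the accession did not tell the probes of most pairs apart. RefSeq (GRCm38.p6) lists several curated transcripts for 67.2% of the members and 56.9% of all such genes, and several promoters for 29.3% and 19.4%. The median gene span was 31.9 kb against 25.9 kb. These shares are descriptions, with no test. Several members act in protein dephosphorylation (Ppp1cc, Ppp2r5c, Ppp2r5d, Ppm1b and Dusp3), a grouping made after the members were known. No share over all genes is given beside it, so whether members are unusual in this was not tested.

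In the groups that the rule did not use, the members' gaps were widest at 17 dpp. Genotypes overlapped both at 17 dpp and in the BD1 line. The reference, the mean of the Brdt+/+ animals, belongs to the contrast that chose the genes, so heights above it are not independent of the rule. Set against the mean of the Brdt+/+ animals, the median gap over members was -0.09 to 0.16 in the 3 Brdt+/+ animals themselves, and 1.47 to 1.87 in Brdt+/- and 1.73 to 2.02 in Brdt-/- animals at 17 dpp, 2 groups that overlapped. The BD1 controls 196, 195 and 219 lay at -0.24, 0.10 and 0.18, and the fourth control, animal 191, stood apart at 0.95. The BD1 deletion lay at 0.61 to 1.18, so that control 191 fell inside its range. Among Brdt-/- animals at 20 dpp, 148 and 152 of litter 1 gave 1.19 and 1.21, and 140 and 139 of litter 2 gave 1.57 and 1.81, a description of the values that chose the genes. Within litter 1 alone, 41 genes met the rule, 34 of them members. Over all 3507 genes the same medians stayed between -0.02 and 0.27 in the 24 animals.

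In the BD1 line, the deletion animals and control 191 had the widest gaps and the lowest spermatid marker signal, though not in the same order. Control 191 had a summed spermatid signal of 6189, against 11040, 18400 and 21730 in the controls 219, 195 and 196. Its median up probe was 0.29 higher and its median down probe 0.59 lower than in Brdt+/+ animals, while in the other 3 controls both medians stayed between -0.07 and 0.18. BD1 deletion animal 222, with the narrowest gap of the deletion animals (0.61), had a sum of 4687. That sum was below the one of control 191, whose gap was wider (0.95). Deletion animals 193 and 197 had sums of 3108 and 3418 and gaps of 1.13 and 1.18. Control 191 and deletion animal 193 were littermates (litter 4). Testis weight was 0.019 g in control 191, and 0.0186, 0.019 and 0.0228 g in deletion animals 193, 197 and 222. Controls 196, 219 and 195 had 0.0226, 0.0232 and 0.0253 g. The part of testis weight in the gaps was not tested. Among Brdt-/- animals at 20 dpp, whose values chose the genes, the sums were 992 and 1123 in litter 2 and 1706 and 2198 in litter 1. At 17 dpp 16 of the 20 spermatid markers were detected on no array of the Brdt+/- animals, and 17 on none of the Brdt-/- animals. The sums there thus say little about spermatids, and the order was mixed. Brdt+/- animals 121 and 127 had the lowest and the highest sum of their group, 748 and 1409, and median gaps of 1.79 and 1.82. Brdt+/- animal 75 had a sum of 1392 and the narrowest gap of that group, 1.47. Among Brdt-/- animals at 17 dpp, 122 and 129 had the lower sums, 623 and 787, and the wider gaps, 1.94 and 2.02. Animals 72 and 73 had sums of 869 and 974 and gaps of 1.73 and 1.83. The part of these markers in the gaps was not tested.

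**Figure D2:**
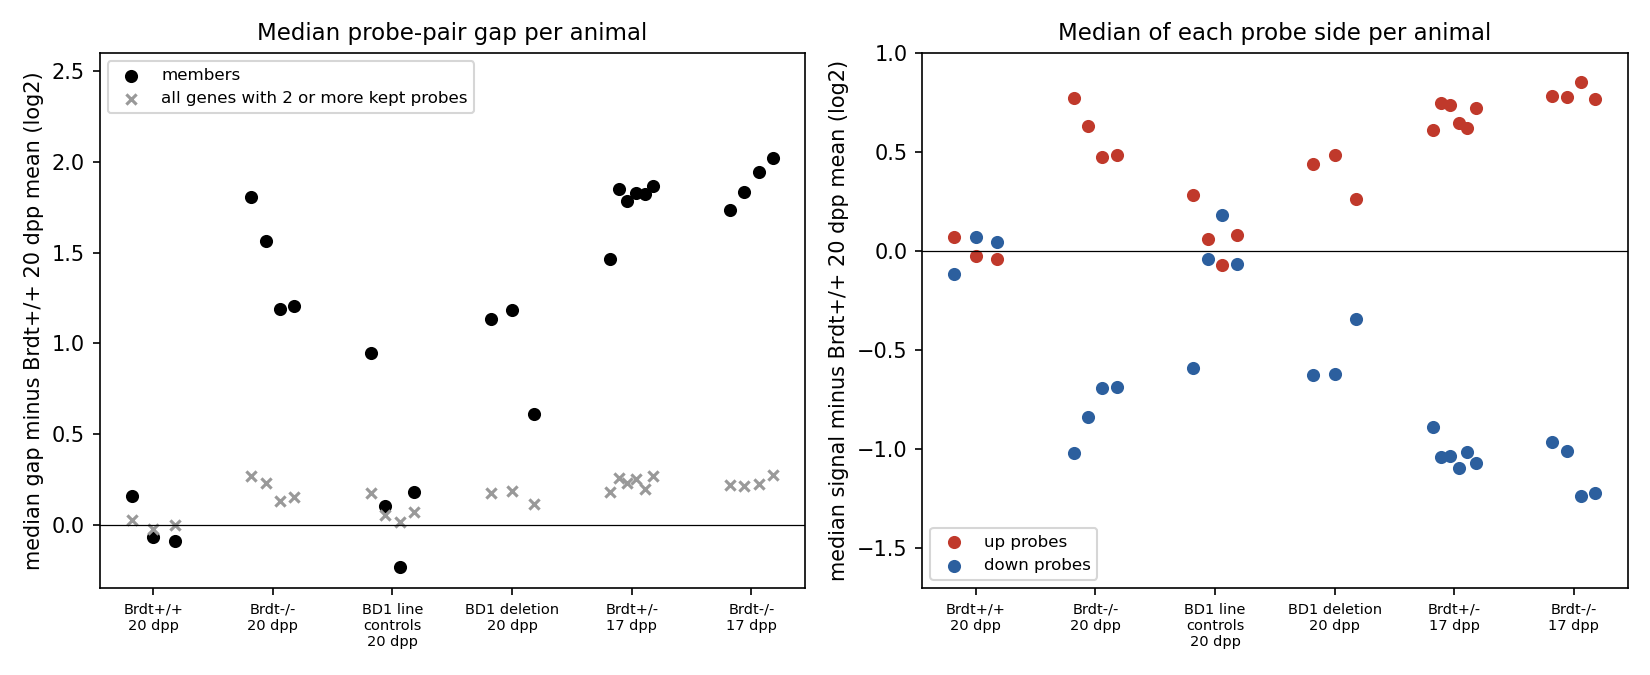
Left, the median probe-pair gap over the 58 members (black) and over all 3507 genes (grey crosses) in each of the 24 animals, in log2 units relative to the mean of the Brdt+/+ animals at 20 dpp (y axis), by group (x axis). Right, the same for the up probes (red) and the down probes (blue) of the members, where control 191 at 0.29 and -0.59 is the one BD1 control away from 0.

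Heterozygous testes at 17 dpp and the BD1 controls at 20 dpp differed in nearly all members, and in the reverse sense: up probes were lower and down probes higher in the older controls. The gap was narrower in 53 of 58 members (limma, adjusted p under 0.05), where 24.9% of all tested genes narrowed, and wider in 0 members, where 4.56% of all widened. The median change was -1.55 in members and -0.14 over all genes, and 57 members lay below 0, as did 68.3% of all genes. In 46 members every BD1 control lay below every Brdt+/- animal, against 16.2% of all genes, and in 0 the reverse held, against 2.91%. Both probes passed the test in opposite directions in 41 genes, each time with the up probe lower and the down probe higher, as they did in 4.02% of all genes. By single probes, 45 up probes fell and 2 rose, where 44.6% of all probes fell, and 54 down probes rose and 1 fell, where 28.4% of all rose. These groups differed in age, line and Brdt genotype together, which cannot be told apart, and all 17 measured spermatid markers were higher in the older group, as were 6 of 10 spermatocyte markers. Lower in it were 6 of 7 Sertoli cell, 4 of 7 spermatogonial, 5 of 5 macrophage, 2 of 3 peritubular and 0 of 3 Leydig cell markers, and the part of these cells in the gaps was not tested. The median of all kept probes was -0.21 here, and 0.11 in the comparison of the BD1 deletion and 0.03 in that of the knockout at 17 dpp. The 5 members that did not pass were Akap12, Mtch2, Arfgef2, Dph3 and Supt16, with changes of -0.61, -0.26, -0.32, -0.15 and 0.01. The comparison shares the BD1 controls with the test of the BD1 deletion, and the heterozygous animals with the test of the knockout at 17 dpp, so their values are given side by side only.

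Deletion of the first bromodomain widened the gap of 6 members: St6galnac2, Mfap3l, Supt16, Msi2, Cep170 and Mxd4 (limma, adjusted p under 0.05, where 1.37% of all genes widened). None narrowed, where 0.0285% of all did. The change was above 0 in 57 of 58 members, all but Fbxl12 (-0.02), against 68.2% of all genes. The median change was 0.72 in members and 0.08 over all genes. Of the up probes 56 lay above 0 and 50 above the median of all kept probes, and 57 down probes lay below 0. In 12 members every BD1 deletion animal lay above every control, against 9.87% of all genes. By single probes 7 up probes rose (1.3% of all probes rose) and 10 down probes fell (5.04% of all fell), and in no member did both probes pass, as in 0% of all genes. The gap of the median member was wide in control 191 too, and without this animal 34 members widened (4.7% of all genes did). With litter as a block the number was 16 (2.71% of all), while without BD1 deletion animal 193 or 197 it was 2 (0.627% and 0.713% of all). The calls of St6galnac2 and Mfap3l held without any 1 of the 7 animals, those of Supt16 and Msi2 were lost without 193 or 197, that of Cep170 also without 222, 195 or 196, and that of Mxd4 also without 219, 195 or 196. Against the BD1+/- controls alone 2 members widened (0.428% of all genes), and against the BD1+/+ controls alone 36 (4.9%). Both BD1+/+ controls came from litter 5, and the BD1+/- controls 191 and 219 from litters 4 and 6. The genotype of the controls thus cannot be told apart from litter, or from animal 191, in these counts. Spermatid markers moved with this comparison: 13 of 17 were lower in the deletion, with 1 of 10 spermatocyte markers lower, 1 of 7 Sertoli cell markers higher and no call among the 18 markers of the other 4 cell types. Their part was not tested.

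At 17 dpp, where most spermatid markers were undetected, the knockout widened the gap of 1 member, Pde4dip (limma, adjusted p = 0.0183), where 0.314% of all genes widened, and narrowed 0, where 0% of all did. The median change was 0.16 in members and 0.02 over all genes, and 46 members lay above 0, against 54.8% of all genes. Every Brdt-/- animal lay above every Brdt+/- animal in 3 members, Pde4dip, Lrrc1 and Dusp3, against 0.912% of all genes, but the down probe of Dusp3 was detected on 0 arrays of either group, so that its gap there has no measured down side. By single probes 0 up probes rose (0.0691% of all probes rose) and 1 down probe fell, that of Pde4dip (0.478% of all fell). No spermatid marker and no cleavage factor passed the test here, and 1 of 10 spermatocyte markers was lower. The summed signal of those 10 was 16270 to 62130 in Brdt-/- and 42240 to 89770 in Brdt+/- animals, and its part in the result was not tested. With litter as a block 5 members widened (1.88% of all genes did): Pde4dip, Dnaaf1, Ppp2r5c, Aldh5a1 and Agfg1, whose changes were 2.28 ± 0.25 (SE), 1.85 ± 0.26, 1.45 ± 0.24, 1.64 ± 0.31 and 0.72 ± 0.15. The call of Pde4dip was lost without Brdt-/- animal 122 or 129, or without Brdt+/- animal 75, 126, 127 or 131, with adjusted p values of 0.0549 to 0.0943, and without Brdt+/- animal 121 the number of calls was 2 (0.827% of all genes).

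**Figure D3:**
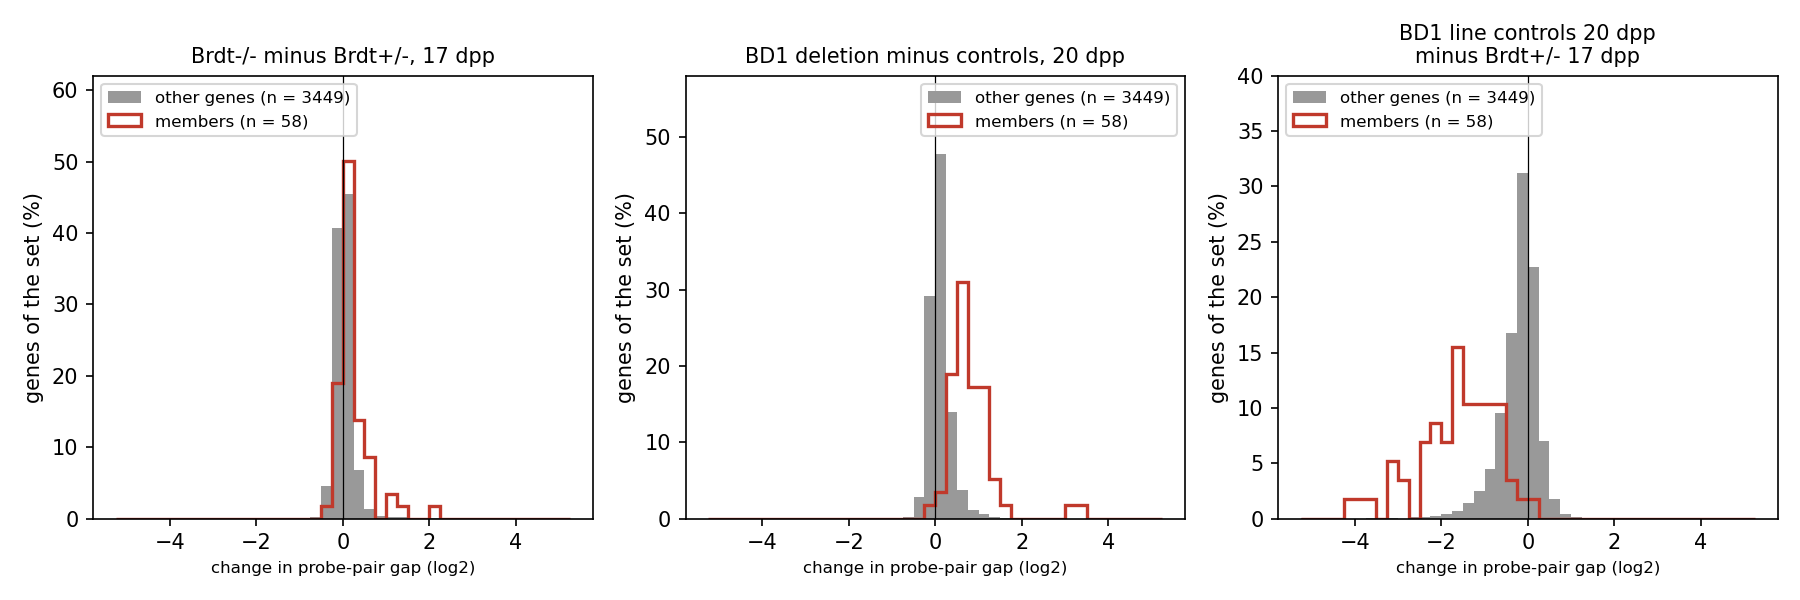
Change in probe-pair gap (x axis, log2) in the 3 tested comparisons for the 58 members (red outline) and the other 3449 genes (grey), as a percentage of each set (y axis). The members' median lies at 0.16 at 17 dpp, at 0.72 in the BD1 deletion and at -1.55 between the control groups, against 0.02, 0.08 and -0.14 over all genes.

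In the values that follow, animals are listed in the order 146, 149 and 157 (Brdt+/+, 20 dpp), 139, 140, 148 and 152 (Brdt-/-, 20 dpp), 219, 191, 195 and 196 (BD1 controls), 193, 197 and 222 (BD1 deletion), and 72, 73, 122 and 129 (Brdt-/-, 17 dpp), and the 6 Brdt+/- animals by their range and median. Changes are in log2 units with their standard error (SE). The members are taken in turn by what their products are known to do, beginning with membrane and secreted proteins and enzymes of the Golgi. St6galnac2, a sialyltransferase that caps O-linked sugars, had a down probe at 10.17, 10.06 and 11.04 in Brdt+/+ and 6.74, 6.96, 7.14 and 6.88 in Brdt-/- animals at 20 dpp. The same probe gave 9.35, 8.51, 10.42 and 10.57 in BD1 controls and 6.81, 6.71 and 6.59 in the BD1 deletion, and 6.89 to 7.45 (median 7.22) in Brdt+/- and 7.46, 7.26, 7.39 and 7.97 in Brdt-/- animals at 17 dpp. Only the control groups at 20 dpp lay above 8, with control 191 the lowest of them, and the BD1 deletion and its controls did not overlap. Its up probe stayed within a narrower band, at 7.74, 7.68 and 7.62 in Brdt+/+ and 8.56, 8.32, 7.88 and 7.89 in Brdt-/- animals at 20 dpp. It gave 7.91, 7.67, 8.00 and 7.71 in BD1 controls, 7.98, 8.01 and 7.96 in the BD1 deletion, 8.07 to 8.99 (median 8.43) in Brdt+/- and 8.69, 8.40, 8.80 and 8.34 in Brdt-/- animals at 17 dpp. The BD1 deletion and its controls overlapped there. The gap widened in the BD1 deletion by 3.17 ± 0.40 (limma, adjusted p = 0.00013) and narrowed between the control groups, with a change of -3.18 ± 0.34 (adjusted p = 2.13e-06). At 17 dpp the change was -0.25 ± 0.34 and did not pass (adjusted p = 0.984). The BD1 change lay in the down probe, -3.01 ± 0.34 (adjusted p = 8.02e-06), with 0.16 ± 0.19 in the up probe (adjusted p = 0.575).

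Mfap3l is a membrane protein related to microfibril-associated protein 3. On the background-corrected values it had the largest difference in gap of all members between Brdt-/- and Brdt+/+ testes at 20 dpp (4.44). On the authors' values St6galnac2 had the largest, with 3.05 against 2.61 in Mfap3l. The down probe read 9.04, 8.88 and 9.79 in Brdt+/+ and 5.19, 5.15, 5.62 and 5.80 in Brdt-/- animals at 20 dpp. It read 8.05, 7.29, 8.87 and 9.26 in BD1 controls and 5.33, 5.31 and 4.73 in the BD1 deletion, where it was detected on 1 of 6 arrays, and 5.12 to 6.15 (median 5.58) in Brdt+/- and 5.41, 6.11, 6.22 and 5.69 in Brdt-/- animals at 17 dpp. As in St6galnac2, the probe stood high in control testes at 20 dpp and low in the other 4 groups, and control 191 was again the lowest control. The up probe read 6.65, 6.34 and 6.49 in Brdt+/+, 7.37, 7.13, 7.22 and 6.84 in Brdt-/-, 6.49, 7.49, 6.54 and 6.23 in BD1 control and 7.04, 7.15 and 6.45 in BD1 deletion animals at 20 dpp. At 17 dpp it read 7.36 to 8.03 (median 7.85) in Brdt+/- and 7.50, 8.00, 8.33 and 8.18 in Brdt-/- animals, mostly above the values at 20 dpp. The gap widened by 3.43 ± 0.45 in the BD1 deletion (limma, adjusted p = 0.000203) and narrowed between the control groups, with a change of -3.87 ± 0.38 (adjusted p = 1.06e-06). Between Brdt-/- and Brdt+/- animals at 17 dpp it was -0.04 ± 0.38 (adjusted p = 0.993).

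Rarres2, which encodes the secreted adipokine chemerin, and Slc41a3 had smaller values. The gap of Rarres2 differed by 1.51 in Brdt-/- animals at 20 dpp and that of Slc41a3 by 1.37. Both narrowed from the younger to the older controls, with changes of -2.42 ± 0.36 (limma, adjusted p = 6.35e-05) and -1.15 ± 0.19 (adjusted p = 0.000159), and neither passed in the BD1 deletion, with 0.67 ± 0.43 and 0.50 ± 0.22. Lrrc1, a leucine-rich repeat adaptor of epithelial cell junctions, had a down probe at 11.29, 11.63 and 11.72 in Brdt+/+ and 9.02, 9.20, 9.71 and 9.74 in Brdt-/- animals at 20 dpp, with no overlap. Its up probe overlapped between these groups, at 7.08, 7.08 and 7.51 and 8.28, 7.64, 7.33 and 7.53. Its down probe fell by 0.77 in the BD1 deletion against the controls (limma, adjusted p = 0.0471), and its gap did not pass (0.68 ± 0.29, adjusted p = 0.351).

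Among genes of centrosomes, cilia and microtubules, Pde4dip, whose product myomegalin anchors signalling and microtubule proteins at the Golgi and the centrosome, was the one member called at 17 dpp. Its down probe lay at 9.17 to 11.16 (median 10.61) in Brdt+/- and 9.10, 9.61, 7.45 and 8.38 in Brdt-/- animals at 17 dpp, groups that overlapped in this probe alone but not in the gap. At 20 dpp it lay at 12.88, 13.07 and 13.05 in Brdt+/+ and 9.73, 10.16, 11.34 and 11.56 in Brdt-/- animals, and the litter 1 animals were the 2 higher ones. In the BD1 line it lay at 13.09, 12.58, 13.02 and 13.17 in controls and 12.42, 12.62 and 13.07 in the deletion, which overlapped near the Brdt+/+ level. The up probe ranged from 7.10 to 8.52 over all 24 animals. At 17 dpp the gap widened by 2.04 ± 0.38 (limma, adjusted p = 0.0183), of which the down probe gave -1.86 ± 0.37 (adjusted p = 0.0284) and the up probe 0.17 ± 0.16 (adjusted p = 0.683). The change in the BD1 deletion was 0.38 ± 0.45 and did not pass (adjusted p = 0.91), and between the control groups the gap narrowed, with a change of -3.01 ± 0.38 (adjusted p = 1.13e-05).

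Both probes of Pde4dip were annotated to different transcript accessions, and RefSeq gives the gene 2 promoters, whose starts lie 120693 bases apart. They are shown because a pair of starts is one way in which 2 probes of a gene can read different transcripts. The promoter table ties no start to a transcript, so which probe goes with which start was not determined. Each sequence runs from 250 bases before to 50 after the start (GRCm38.p6, minus strand, chr3:97888658-97888957 and chr3:97767965-97768264), with matches on either strand to the letters TATAAA and GGGCGG, to TGACGTCA or to CCAAT in capitals.
Pde4dip start 1: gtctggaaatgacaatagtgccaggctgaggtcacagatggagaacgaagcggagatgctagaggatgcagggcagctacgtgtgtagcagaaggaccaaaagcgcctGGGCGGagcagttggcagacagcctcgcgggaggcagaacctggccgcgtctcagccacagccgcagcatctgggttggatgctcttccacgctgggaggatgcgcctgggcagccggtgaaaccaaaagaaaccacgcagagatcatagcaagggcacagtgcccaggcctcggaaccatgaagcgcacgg
Pde4dip start 2: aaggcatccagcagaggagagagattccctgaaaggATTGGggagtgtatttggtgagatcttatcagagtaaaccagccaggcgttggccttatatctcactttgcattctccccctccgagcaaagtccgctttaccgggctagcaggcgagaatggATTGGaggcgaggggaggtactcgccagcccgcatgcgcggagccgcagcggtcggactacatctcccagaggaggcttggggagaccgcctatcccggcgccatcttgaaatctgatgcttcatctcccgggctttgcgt
The upstream start held 1 GGGCGG and no CCAAT, and the downstream one 2 CCAAT, read on the other strand as ATTGG, and no GGGCGG. Neither held TATAAA or the cyclic AMP response element TGACGTCA. Over all 32851 RefSeq promoters of this length, 35.7% hold GGGCGG, 37.4% CCAAT, 13.6% TATAAA and 1.79% TGACGTCA, and over the 70 promoters of the 45 members with an entry the shares were 64.3%, 41.4%, 8.57% and 5.71%. A match is only a run of letters, and members were not matched to other genes for base composition.

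Nme7, a nucleoside diphosphate kinase family protein of the gamma-tubulin ring complex, had 7 kept probes, the most of any member. Against Brdt+/+ at 20 dpp, 3 of them were higher, by 1.18, 1.53 and 1.02, and 4 were lower, with differences of -1.20 to -0.54. The up probe lay at 10.39, 9.87 and 9.88 in Brdt+/+ and 11.68, 11.58, 10.80 and 10.83 in Brdt-/- animals, and the down probe at 8.39, 9.01 and 8.91 and 7.52, 7.38, 7.43 and 7.95, each with no overlap. In the groups that the rule did not use, all 3 of the first set were lower and all 4 of the second set higher in BD1 controls than in Brdt+/- animals at 17 dpp. Those changes ran from -1.55 to -1.25 and from 0.59 to 2.05, and all 7 passed the test (limma, highest adjusted p = 0.00214). Deletion of the first bromodomain gave changes of 0.62 to 0.65 in the first set and -0.66 to -0.17 in the second, and 1 of the 7 passed, with 0.62 (adjusted p = 0.0331). The gap of the pair fell by 3.60 ± 0.37 between the control groups (adjusted p = 1.65e-06) and did not pass in the BD1 deletion (1.30 ± 0.44, adjusted p = 0.189).

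**Figure D4:**
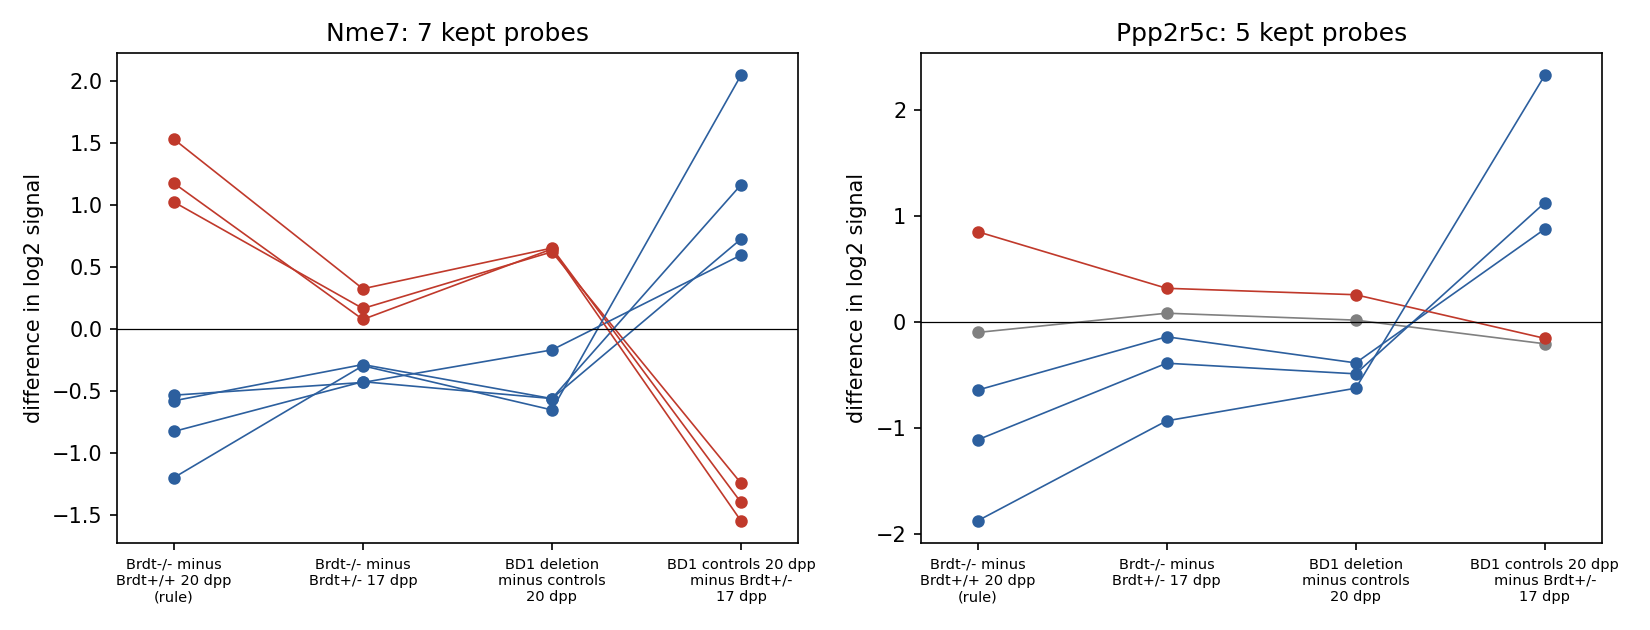
Difference in log2 signal (y axis) of each kept probe of Nme7 (7 probes, left) and Ppp2r5c (5 probes, right) in the contrast of the rule and in the 3 tested comparisons (x axis), with probes at or above 0.3 in the first contrast in red, those at or below -0.3 in blue and the other in grey. The red Nme7 probes lie above 0 in the first 3 positions and at -1.55 to -1.25 in the last, where the blue ones lie at 0.59 to 2.05.

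Dnaaf1, a factor that assembles the dynein arms of motile cilia and flagella, had a down probe at 13.96, 14.20 and 14.20 in Brdt+/+ and 11.72, 12.23, 12.69 and 12.90 in Brdt-/- animals at 20 dpp. In the BD1 deletion its up probe rose, with 9.62, 9.60 and 9.52 against 9.13, 9.38, 9.14 and 8.82 in the controls and no overlap (change 0.46 ± 0.13, limma, adjusted p = 0.0426), and its gap did not pass (1.15 ± 0.58, adjusted p = 0.502). At 17 dpp the down probe was spread widely, at 10.53 to 12.68 (median 11.91) in Brdt+/- and 11.47, 11.58, 8.88 and 10.80 in Brdt-/- animals, with the lowest value in animal 122. That animal also had the lowest testis weight, 0.009 g, and the lowest summed spermatid signal of its group, 623. In that group 17 of the 20 spermatid markers were detected on no array, so the sum says little about spermatids.

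Cep170, a centrosomal protein, widened its gap in the BD1 deletion by 0.73 ± 0.16 (limma, adjusted p = 0.026), and no animal of one group overlapped the other. Its down probe lay at 7.46, 7.65 and 7.52 in the deletion and 8.03, 7.71, 8.16 and 8.38 in the controls, a call of -0.53 ± 0.15 (adjusted p = 0.0448). Its up probe lay at 10.49, 10.70 and 10.48 and 10.38, 10.48, 10.33 and 10.22 (adjusted p = 0.191). Jpt1, a microtubule-associated protein, had 1 of the 7 up probes that rose in the BD1 deletion, by 0.33 ± 0.08 (adjusted p = 0.0222), and its gap did not pass there. Between the control groups the gap of both genes narrowed, with changes of -1.43 ± 0.14 and -1.36 ± 0.15.

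The named members include 3 phosphatase genes: Ppp1cc, the gamma catalytic subunit of protein phosphatase 1, and Ppp2r5c and Ppp2r5d, the B56 gamma and delta regulatory subunits of protein phosphatase 2A. Ppp1cc is known for a testis-enriched splice form, gamma 2, which spermatids and sperm contain. Its down probe lay at 10.18, 10.32 and 10.31 in Brdt+/+ and 9.06, 9.15, 9.64 and 9.58 in Brdt-/- animals at 20 dpp, and its up probe at 7.32, 6.92 and 7.00 and 8.11, 8.30, 7.37 and 7.59, each with no overlap. Between the control groups the gap fell by 2.02 ± 0.34 (limma, adjusted p = 0.000213), of which the down probe gave 1.64 ± 0.24 (adjusted p = 1.60e-05) and the up probe, -0.39 ± 0.18, did not pass (adjusted p = 0.0622). In the BD1 deletion the change of 0.91 ± 0.41 did not pass (adjusted p = 0.395), although no deletion animal overlapped a control in the down probe, at 9.40, 9.44 and 9.77 against 10.27, 9.81, 10.17 and 10.53.

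Ppp2r5d had the largest up probe difference of all members on the background-corrected values, 1.30. On the authors' values Nme7 had the largest, with 1.10 against 0.80 in Ppp2r5d. The up probe of Ppp2r5d lay at 6.91, 6.50 and 6.75 in Brdt+/+ and 8.35, 8.15, 7.82 and 7.75 in Brdt-/- animals at 20 dpp. At 17 dpp that probe lay at 8.14 to 9.09 (median 8.64) in Brdt+/- and 8.62, 8.64, 9.29 and 9.21 in Brdt-/- animals, and BD1 controls had 6.96, 7.58, 7.13 and 6.56, below all of the younger animals. Between the control groups the gap fell by 2.34 ± 0.30 (limma, adjusted p = 1.26e-05) and did not pass in the BD1 deletion (0.68 ± 0.35, adjusted p = 0.524).

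Ppp2r5c had its up and down probes on different accessions, and 5 kept probes in all. The down probe lay at 9.34, 9.70 and 9.57 in Brdt+/+ and 7.08, 7.06, 8.21 and 8.30 in Brdt-/- animals at 20 dpp, with the litter 1 animals the higher pair. At 17 dpp it lay at 6.12 to 7.66 (median 6.92) in Brdt+/- and 6.37, 6.25, 5.28 and 6.16 in Brdt-/- animals, which overlapped, and the gap changed by 1.25 ± 0.35 (limma, adjusted p = 0.155, or 0.00363 with litter as a block). Between the control groups it fell by 2.48 ± 0.35 (adjusted p = 3.39e-05), with a rise in the down probe (2.33 ± 0.27, adjusted p = 1.39e-06), while the up probe did not pass (-0.15 ± 0.18, adjusted p = 0.459). Its RefSeq promoters lie 38275 bases apart on the plus strand (GRCm38.p6, chr12:110447272-110447571 and chr12:110485547-110485846), and are shown for the same reason and with the same marks.
Ppp2r5c start 1: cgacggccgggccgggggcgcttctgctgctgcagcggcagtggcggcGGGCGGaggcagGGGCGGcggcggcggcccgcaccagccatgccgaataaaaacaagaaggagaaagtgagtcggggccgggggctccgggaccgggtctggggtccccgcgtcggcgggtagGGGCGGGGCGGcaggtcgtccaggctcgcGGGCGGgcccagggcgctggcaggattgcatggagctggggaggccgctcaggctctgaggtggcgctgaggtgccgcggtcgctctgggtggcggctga
Ppp2r5c start 2: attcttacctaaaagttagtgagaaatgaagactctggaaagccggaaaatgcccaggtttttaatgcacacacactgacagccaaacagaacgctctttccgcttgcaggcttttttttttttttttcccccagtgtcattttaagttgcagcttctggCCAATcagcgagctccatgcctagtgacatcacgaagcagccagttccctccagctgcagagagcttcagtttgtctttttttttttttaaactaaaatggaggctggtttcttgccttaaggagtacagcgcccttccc
The upstream start held 5 GGGCGG, of which 2 overlap, and the downstream start 1 CCAAT, with none of the other motifs in either.

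Among members that act on chromatin, transcription or RNA, Supt16, a subunit of the histone chaperone FACT, had a down probe at 11.23, 10.49, 11.41 and 11.62 in BD1 controls and 9.81, 9.61 and 10.49 in the BD1 deletion, where deletion animal 222 and control 191 read alike. The same probe lay at 12.56, 12.69 and 12.76 in Brdt+/+ and 11.93, 11.94, 12.20 and 12.15 in Brdt-/- animals at 20 dpp, at 11.68 to 11.98 (median 11.86) in Brdt+/- and at 11.85, 11.86, 11.86 and 11.77 in Brdt-/- animals at 17 dpp. All 7 animals of the BD1 line thus read lower than the 17 animals of the knockout line, and in the BD1 controls both probes of Supt16 were lower than in Brdt+/- animals, with a change of -0.64 ± 0.14 in the up probe (limma, adjusted p = 0.000622) and -0.65 ± 0.18 in the down probe (adjusted p = 0.00335). The change in its gap there was 0.01 ± 0.27 (adjusted p = 0.978). Its gap widened in the BD1 deletion by 1.66 ± 0.32 (limma, adjusted p = 0.00848), with -1.21 ± 0.21 in the down probe (adjusted p = 0.000914).

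Msi2, an RNA-binding protein of the Musashi family, read 9.28, 9.27 and 9.42 with its down probe in the BD1 deletion and 10.30, 9.51, 10.49 and 10.79 in the controls. Its up probe read 7.53, 7.34 and 7.35 and 7.27, 7.09, 7.19 and 6.83, and neither probe overlapped between the groups. The gap widened by 1.26 ± 0.25 (limma, adjusted p = 0.0117). Mxd4, a MAX partner that represses transcription, widened its gap by 1.09 ± 0.24 (adjusted p = 0.0265), with a down probe at 9.38, 9.25 and 9.62 in the deletion and 10.34, 9.80, 10.33 and 10.62 in the controls. At 17 dpp the changes of both genes were small, 0.13 ± 0.21 and 0.05 ± 0.21. Smc4, a condensin subunit, had a down probe that fell in the BD1 deletion by 0.72 ± 0.19 (adjusted p = 0.026), and its gap did not pass (0.93 ± 0.29, adjusted p = 0.127).

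**Figure D5:**
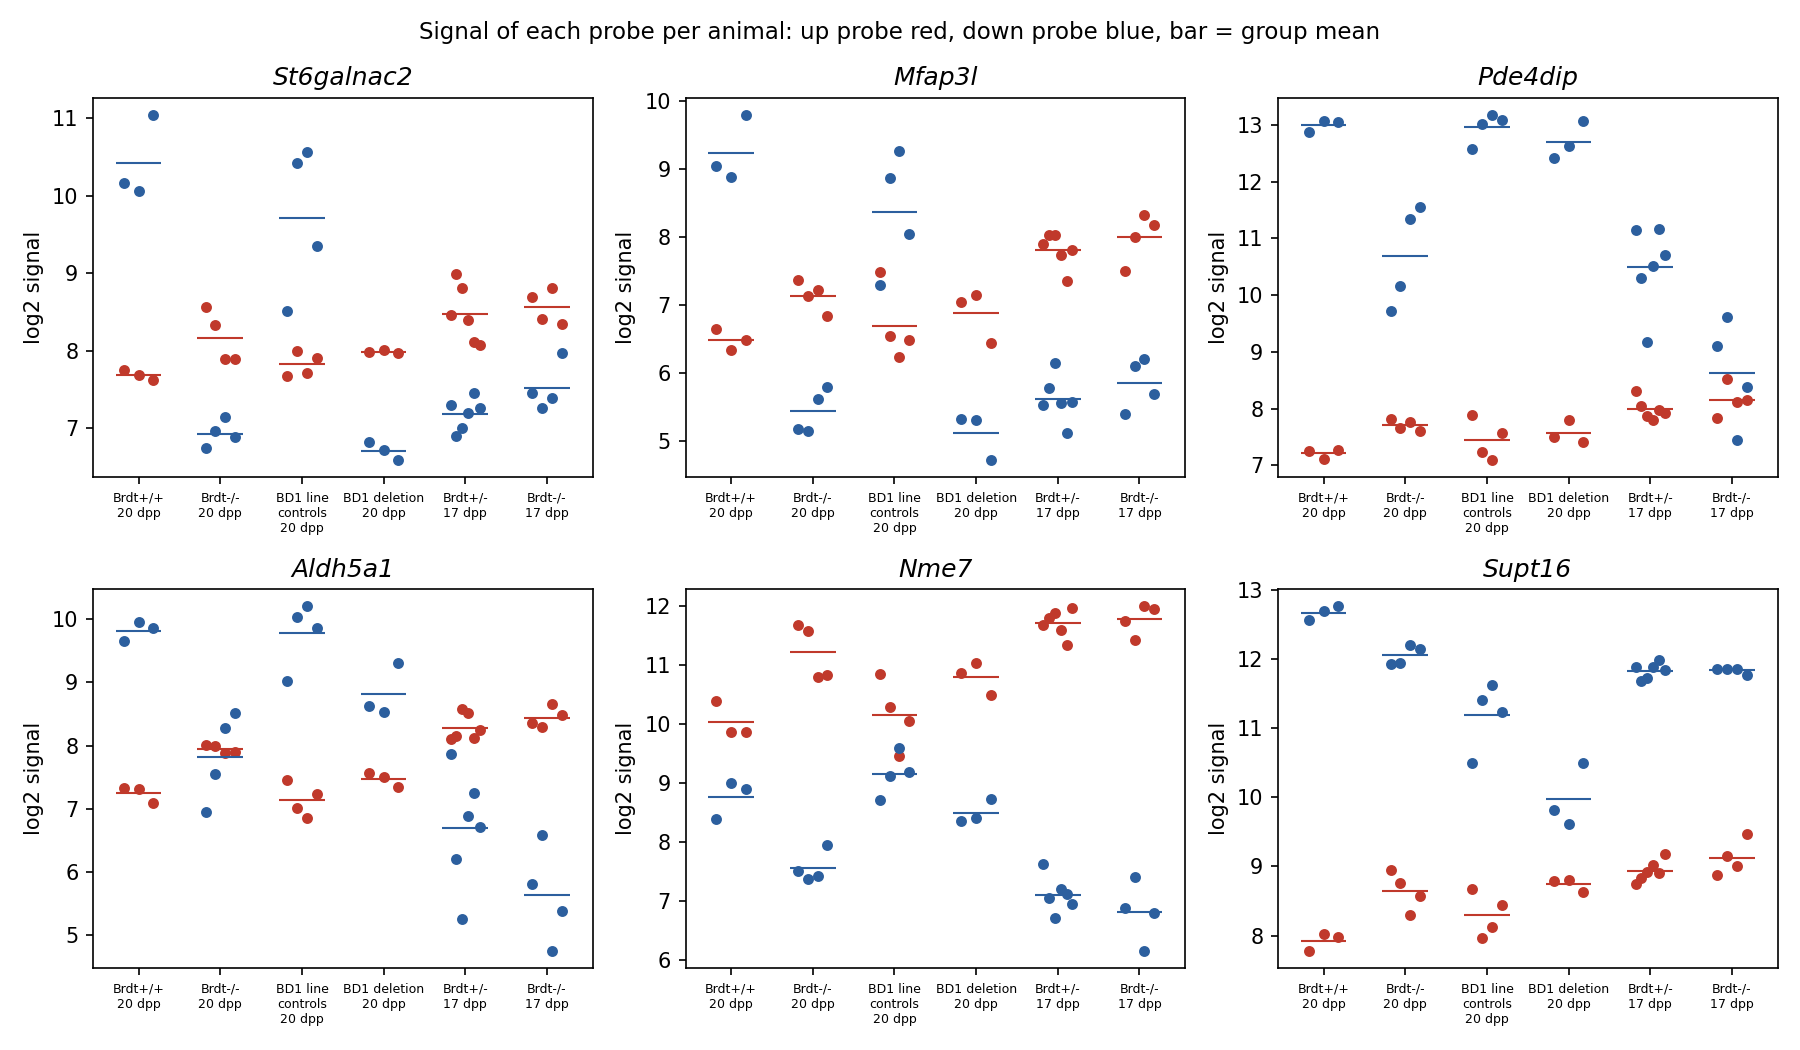
Log2 signal (y axis) of the up probe (red) and the down probe (blue) of St6galnac2, Mfap3l, Pde4dip, Aldh5a1, Nme7 and Supt16 in every animal (points) with group means (bars), by group (x axis). The blue points of St6galnac2 and Mfap3l stand high in the control groups at 20 dpp and low in the other 4, and those of Supt16 are lowest in the BD1 line.

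Wdr33, the subunit of the cleavage and polyadenylation complex that helps to recognise the poly(A) signal, was the only member among 25 listed factors of that machinery, of which 23 were measured. Its up probe lay at 10.66, 10.66 and 10.60 in Brdt+/+ and 11.07, 11.35, 11.11 and 11.16 in Brdt-/- animals at 20 dpp, and its down probe at 7.80, 7.94 and 7.76 and 7.00, 6.79, 7.24 and 7.19. From the younger to the older controls the up probe fell, -0.52 ± 0.10 (limma, adjusted p = 0.000187), and the down probe rose, 0.69 ± 0.16 (adjusted p = 0.00079). Neither its gap at 17 dpp (-0.04 ± 0.18) nor that in the BD1 deletion (0.38 ± 0.21) passed. Of the 23 measured factors, each read by its probe of highest mean (for Wdr33 neither of the pair but another one, with -0.57 ± 0.09), 7 were higher and 9 lower in BD1 controls than in Brdt+/- animals at 17 dpp, where 28.4% of all kept probes were higher and 44.6% lower, so these counts lie near the share over all probes. The higher ones included Papolb, the testis poly(A) polymerase, by 3.38 ± 0.45 (SE, adjusted p = 5.91e-06), and the lower ones Cstf2, an RNA-binding subunit of the cleavage stimulation factor (-1.02 ± 0.12, adjusted p = 1.86e-06). In the BD1 deletion 1 factor was called, Pcf11, a cleavage factor that binds RNA polymerase (-0.59 ± 0.16, adjusted p = 0.0271), and at 17 dpp 0 were. Another list holds 20 genes known for germ-cell transcript forms, of which Ppp1cc was the one member. Of its 18 measured genes 12 were higher and 2 lower in the older than in the younger controls, 3 were lower in the BD1 deletion and 0 were called at 17 dpp.

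Of the metabolic members, Aldh5a1, the succinate semialdehyde dehydrogenase of GABA breakdown, had the largest change between the control groups. Its down probe lay at 5.25 to 7.86 (median 6.80) in Brdt+/- animals at 17 dpp and 9.85, 9.03, 10.03 and 10.20 in BD1 controls, and its up probe at 8.11 to 8.57 (median 8.20) and 7.24, 7.46, 7.01 and 6.86, so that both probes separated the groups in opposite directions. The gap fell by 4.22 ± 0.49 (limma, adjusted p = 4.74e-06). In Brdt-/- animals at 20 dpp the down probe lay at 6.95, 7.55, 8.27 and 8.52, and in Brdt+/+ at 9.65, 9.95 and 9.85. The BD1 deletion changed the gap by 1.28 ± 0.58, which did not pass (adjusted p = 0.402). The gap of Pex3, a factor of peroxisome formation, fell by 1.36 ± 0.17 between the control groups (adjusted p = 7.81e-06) and changed by 0.56 ± 0.20 in the BD1 deletion (adjusted p = 0.211).

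Fam13b, Fam8a1, Mapk1ip1l, Fgfr1op2, 0610010F05Rik and Tmcc1 had gaps that differed by 0.90 to 2.16 in Brdt-/- animals at 20 dpp. All 6 narrowed between the control groups, from -1.48 ± 0.22 in Mapk1ip1l to -2.82 ± 0.29 in Fam13b (limma, adjusted p = 6.02e-05 and 1.49e-06). Their gaps in the BD1 deletion changed by 0.61 to 1.09 and did not pass, with the lowest adjusted p, 0.056, in both Mapk1ip1l and Fam8a1. Single probes did pass there: the up probes of Fam13b (0.38 ± 0.10, adjusted p = 0.0306) and Fam8a1 (0.30 ± 0.08, adjusted p = 0.0418), and the down probe of Mapk1ip1l (-0.85 ± 0.21, adjusted p = 0.0155).

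Where members had further kept probes, these were spread over both sides and the range between. Their values share the contrast that chose the genes, and no share over all kept probes is given beside them. Among the further probes of the 37 members with 3 or more, 11 differed by 0.3 or more in Brdt-/- animals at 20 dpp, 16 by -0.3 or less and 32 by less than either. In 2 members the down probe was at background in both groups at 17 dpp, so that only a bound can be given: it was at least 1.33-fold higher in BD1 controls than in Brdt+/- animals for Dusp3, a dual-specificity phosphatase, and at least 2.08-fold for Slc6a9, a glycine transporter, both named after their values were seen. Among the 6 arrays of the BD1 controls, the probe of Dusp3 was detected on only 4 and that of Slc6a9 on 6.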

How the data were processed

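The submitters' processing notes name GenomeStudio 2011.1 as the program behind the deposited tables. For each of 36 single-colour Illumina arrays of whole testis RNA, the authors deposited the raw probe intensity and a detection p-value, and a table of processed intensity values whose column medians lie at 133.8 to 133.9; neither the labels nor the file headers state how it was scaled. Members were found on log2 of the processed intensity. Printed levels and all tests used the raw intensities after background correction and quantile normalisation with neqc of limma 3.58.1 (R 4.3.3, offset 16, detection p-values in place of control probes), with the arrays of an animal averaged first.

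The probe-pair gap was compared with lmFit and eBayes over all 3507 genes with 2 or more kept probes, in the 17 animals of the 4 groups the member rule did not use, with Benjamini-Hochberg adjustment and a threshold of 0.05. Single probes were tested likewise, with an intensity trend, over 17365 kept probes. A probe was named only where GEO's platform annotation gives 1 symbol (34885 probes; 18 had several and 10378 none), and symbols were updated through Entrez IDs with RefSeq, which changed 0. Arrays of an animal are repeats, so animals are the replicates, and the labels place them in litters.

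The genes named are the 20 members with the largest gap between probes in the contrast of the rule, up to 8 called members of smallest adjusted p in each tested comparison, members of the cleavage and polyadenylation and germ-cell isoform lists, and the 3 genes nearest each side of the threshold. Members, lists and tests were chosen with earlier results of these data known. The lists of marker genes cover round spermatids, spermatocytes, spermatogonia, Sertoli, Leydig and peritubular cells and macrophages. Alternatives changed the background correction, normalisation, member rule, animals, litter and replicate blocks, and the groups in the fit.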

Additional observations from a re-analysis of the deposited data

Results flagged for a closer look

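Among 108 sets of 4 or 6 animals, 2 held an animal far from the rest of its group by Dixon's criterion, where chance gives about 1 in 20. Brdt+/- animal 75 at 17 dpp, the only one of its group from litter 7, had a median gap over members of 1.467 relative to Brdt+/+ at 20 dpp, below the 1.786 to 1.865 of the other 5. In Brdt-/- animals at 20 dpp the gap of Msi2 was -1.594 in animal 148, below the -1.249 to -1.192 of the other 3.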

How the results depend on the processing

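The number of members was 58, and 121 on the background-corrected values, 9 with a threshold of 0.5, 128 with 0.2 and 38 when differences were taken from the median of all kept probes, a choice made after seeing the data. Without 1 animal it ran from 48 to 67. At 17 dpp the 1 call (0.314% of all genes) became 0 with the groups of the comparison alone or a member threshold of 0.5. It became 5 with litter as a block (1.88% of all genes), and 0 to 2 without 1 animal. The median change at 17 dpp was 0.42 with that threshold and 0.09 to 0.20 without 1 animal. In the BD1 deletion the 6 calls became 16 on the authors' processed values or without background correction, 10 with median scaling, 12 with all 6 groups in the fit, 1 with the groups of the comparison alone or a threshold of 0.5, 17 with members found on the background-corrected values, 16 with litter as a block, 2 with BD1+/- and 36 with BD1+/+ controls only, and 2 to 34 without 1 animal. Without control 191 and with litter as a block, added after seeing the data, it was 30, and the median change without 1 animal was 0.55 to 0.92. The share of all genes that widened moved too, from 0.428% to 5.65% over these settings and the replicate block given next. Between the control groups the 53 calls (24.9% of all genes) became 110 with members found on the background-corrected values, 8 of 9 members with a threshold of 0.5, and 49 to 55 without 1 animal. The median there was -1.18 on the authors' processed values and without background correction, -1.19 with the wider member list, -2.34 with a threshold of 0.5 and -1.79 to -1.36 without 1 animal. Litters did not cross these groups, so that no value with litter as a block could be had. The cause was not tested. Single-gene values under alternatives were followed only for named members called in the main fit, most of them between the control groups. Of these values, 550 kept direction and side of the threshold, 30 lost the call and 0 reversed. Calls gained under an alternative were not counted here. Calls lost without 1 animal at 17 dpp and in the BD1 deletion are given with those comparisons.

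The labels' replicate numbers gave correlations of -0.15 to 0.67 between same-numbered arrays at 17 dpp, -0.08 to 0.48 in the BD1 line and -0.12 to 0.21 between the control groups (6 pairs each), so that the numbers were not taken to pair samples. With the replicate number as a block over arrays and animal as a random block, 3, 37 and 55 members were called in these comparisons. Where no share of all genes stands beside a count of calls in this section, the count is not read as a result about the members. For dim probes the signal over background limits the values: the down probe of Mfap3l was detected on 1 of 6 arrays of the BD1 deletion.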
